A study of Homo sapiens with 27 samples.

Results

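The small nucleolar RNA host genes analysed here were the genes named SNHG with a number, together with GAS5, EPB41L4A-AS1, ZFAS1 and DANCR, that were detected in U2OS cells, a human osteosarcoma line. They were chosen by symbol, with earlier results of these data known. Of 34464 genes in the deposited table, 31 met this rule with a mean above 0 over all libraries, 28 had a mean above 1 FPKM (fragments per kilobase of transcript, scaled to the size of the library), and SNHG27, SNHG28 and SNHG22 lay below it. SNHG4 and SNHG33 were not analysed here.

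Host genes of this kind are transcribed, capped, spliced and polyadenylated like mRNAs, but the products that are best understood lie in their introns. Each intron-encoded small nucleolar RNA (snoRNA) is trimmed out of the excised intron and packed with proteins into a snoRNP, which guides the chemical modification of ribosomal RNA in the nucleolus. Box C/D snoRNAs guide methylation, box H/ACA snoRNAs guide pseudouridylation, and scaRNAs do the same for spliceosomal RNAs in Cajal bodies. The spliced exons that remain carry short or no reading frames, and many are known to be bound by ribosomes in the cytoplasm and destroyed by nonsense-mediated decay. The libraries were made from poly(A)+ RNA, so polyadenylated host RNA was measured and the trimmed snoRNAs were not. Polyadenylated RNA that still held an intron was not told apart from the spliced form.

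The study asked how the distribution of transcripts between nucleus and cytoplasm depends on TPR, a filament protein of the nuclear pore basket. Cells received a lentiviral scrambled control shRNA, or the shRNA ‘TPR A’ or the shRNA ‘TPR D’, both directed against TPR, and were collected after 5 days. Each shRNA had 3 replicate cultures. Every culture gave a library of total RNA from a set-aside portion of the cells, and, after detergent lysis of the rest, a nuclear and a cytoplasmic/ER library, so that 27 libraries fell into 9 groups of 3. All groups share the U2OS background and the lentiviral infection, and the shRNAs lower TPR without removing it. In such bulk libraries fewer cells of a type and less RNA per cell cannot be told apart.

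By RefSeq annotation (GRCh38.p14), counting both strands, 16 of the 31 host genes enclose 1 small RNA, 13 enclose more and SNHG27 and SNHG28 enclose none. Box C/D snoRNAs alone lie in 13 genes, box H/ACA snoRNAs alone in 10, and scaRNAs alone in 4, among them SNHG10, SNHG20, SNHG21 and SNHG22. SNHG14, the host of the Prader-Willi snoRNA clusters, encloses 83, GAS5 11 and SNHG1 8. ZFAS1 (chr20:47894715-47916137, plus strand, GRCh37) carries 3 related box C/D snoRNAs in its introns. SNHG19 (chr16:2204793-2205406, minus strand) and SNHG25 (chr17:62223297-62223836, plus strand), both under 1 kb from start to end, carry 1 each. These 5 snoRNAs are shown from GRCh37, 5′ to 3′, as the RNAs that the introns of ZFAS1, SNHG19 and SNHG25 release, with box C (the letters ATGATGA or GTGATGA within the first 20 bases) and box D (the last CTGA within the final 20 bases) in capitals. The bases just outside the boxes pair with each other in the folded snoRNA.
SNORD12C (in ZFAS1, chr20:47895477-47895565, plus strand): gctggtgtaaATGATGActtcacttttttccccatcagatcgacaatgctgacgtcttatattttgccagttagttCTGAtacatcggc
SNORD12B (in ZFAS1, chr20:47896856-47896946, plus strand): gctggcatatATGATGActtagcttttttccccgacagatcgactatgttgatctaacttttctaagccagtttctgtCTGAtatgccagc
SNORD12 (in ZFAS1, chr20:47897220-47897309, plus strand): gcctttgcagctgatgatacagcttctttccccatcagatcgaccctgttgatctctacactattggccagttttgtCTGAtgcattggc
SNORD60 (in SNHG19, chr16:2205024-2205106, minus strand): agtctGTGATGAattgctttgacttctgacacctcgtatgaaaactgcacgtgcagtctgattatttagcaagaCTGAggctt
SNORD104 (in SNHG25, chr17:62223443-62223512, plus strand): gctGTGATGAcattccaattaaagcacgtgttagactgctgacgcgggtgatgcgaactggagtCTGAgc

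Box D was found in all 5 and box C in 4 of them. In SNORD12 neither spelling of box C was found, so none is marked. Of 389 genes named SNORD in the annotation, 48.8% held both boxes by this search on the given strand, and of 398 genes named SNORA none did. Each of the 5 lies on the strand of its host. None of them, once released from its host, is measured by a poly(A)+ library.

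Many snoRNA host genes are known to start at a run of pyrimidines, as ribosomal protein genes do, which ties their RNAs to the translation machinery. A pyrimidine tract was taken as a C followed by at least 4 bases that are C or T, read on the gene's strand from 10 bases before to 20 bases after the RefSeq start. It occurred in 16 of the 24 host genes above 1 FPKM that have a start in the table, a share of 66.7%, compared with 38.4% of 35116 starts in all and 77.8% of 81 starts of ribosomal protein genes. The following windows of 30 bases, with the tract in capitals, are those in which the first tract begins at the start site or 1 base before it. SNHG19 and SNHG7 have such a tract too, behind an earlier one, and are not shown. The tract of SNHG18 runs to the end of the window. Sequences are from RefSeq (GRCh38.p14), and the positions are those of the identical sequence in GRCh37.
SNHG12 (chr1:28908366-28908395, minus strand): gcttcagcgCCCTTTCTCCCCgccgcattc
SNHG18 (chr5:9546302-9546331, plus strand): gccgcgccgCCTCCTCCTCCTCCTCCTCCC
SNHG32 (chr6:31802683-31802712, plus strand): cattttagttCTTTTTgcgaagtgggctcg
SNHG5 (chr6:86388432-86388461, minus strand): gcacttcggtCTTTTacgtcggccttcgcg
ZFAS1 (chr20:47895169-47895198, plus strand): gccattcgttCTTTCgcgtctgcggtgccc

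The 16 genes with a tract had a median level of 71.5 FPKM over all libraries and the 8 genes without one had 44.2 FPKM. GAS5 and SNHG1 were among the latter by this definition. Their median control N/C ratios, a measure the log2 of the nuclear over the cytoplasmic level, were -0.76 and -0.30, with ranges that overlapped. A match describes the letters in the window only, and the window depends on where the annotation places the start.

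The libraries were first checked as a set. Read from the steps between low values, an FPKM of 1 over 1 kb of effective transcript length corresponded to 31.1 to 86.6 reads. TPR, the targeted gene, had 26.4 ± 1.57 FPKM (SD, n = 3) in control total RNA, 4.17 ± 0.654 with TPR A and 4.66 ± 1.39 with TPR D. Osteoblast-lineage genes were present, with RUNX2 at 6.25 to 25.1 FPKM, while COL1A2 stayed below 1 FPKM. Of the genes that mark other cell types, CD3E and CDH5 did not exceed 0.0417 and 0.118 FPKM, the leukocyte gene PTPRC ranged up to 1.22, and the epithelial genes EPCAM and CDH1 ranged from 1.43 to 6.87 and from 0.216 to 1.67 FPKM. Their part in the results was not tested. MALAT1, a nuclear speckle RNA, had nuclear levels of 22.1, 83.6 and 40.1 FPKM in control (replicates 1, 2 and 3). They were 22.97, 16.3 and 25.8 with TPR A and 18.96, 20.8 and 39.3 with TPR D. Cytoplasmic levels were 9.27, 9.05 and 9.31 in control, 16.1, 2.27 and 7.84 with TPR A and 11.07, 3.18 and 7.17 with TPR D. Nuclear and cytoplasmic levels lay closest in TPR A replicate 1. How far incomplete separation entered the N/C ratios was not tested. In 25 of 27 libraries the profile over all genes correlated best with the other libraries of its own fraction. The 2 exceptions were the nuclear and the total library of control replicate 2. The share of FPKM on mitochondrially encoded genes was 21.8% in that nuclear library, against 0.774 to 2.42% in the other nuclear libraries, and 0.738% in that total library, against 15.8 to 24.7% in the other total libraries. Both were kept under their labels. The control N/C counts and median of the host genes are also given without this culture. So are their medians for the N/C change, for nuclear RNA and for total RNA, and the total RNA differences of the most abundant genes. Other values are given without it only where stated, and those for pyrimidine tracts, kinds of snoRNA and the gene lists are not.

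Host genes were among the most abundant long non-coding RNAs of the table. Of the 20 lncRNA genes with the highest mean FPKM, 11 were host genes, as were 20 of the highest 100, out of 12757 lncRNA genes. GAS5 ranked first among lncRNA genes and 195th among all genes. The 31 host genes together took 15.3 to 27.2% of the FPKM summed over lncRNA genes in a library (median 21.01%). Their median over the 28 genes tested was 71.5 FPKM, compared with 2.58 for the lncRNA genes tested and 12.4 for all genes tested.

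**Figure D1:**
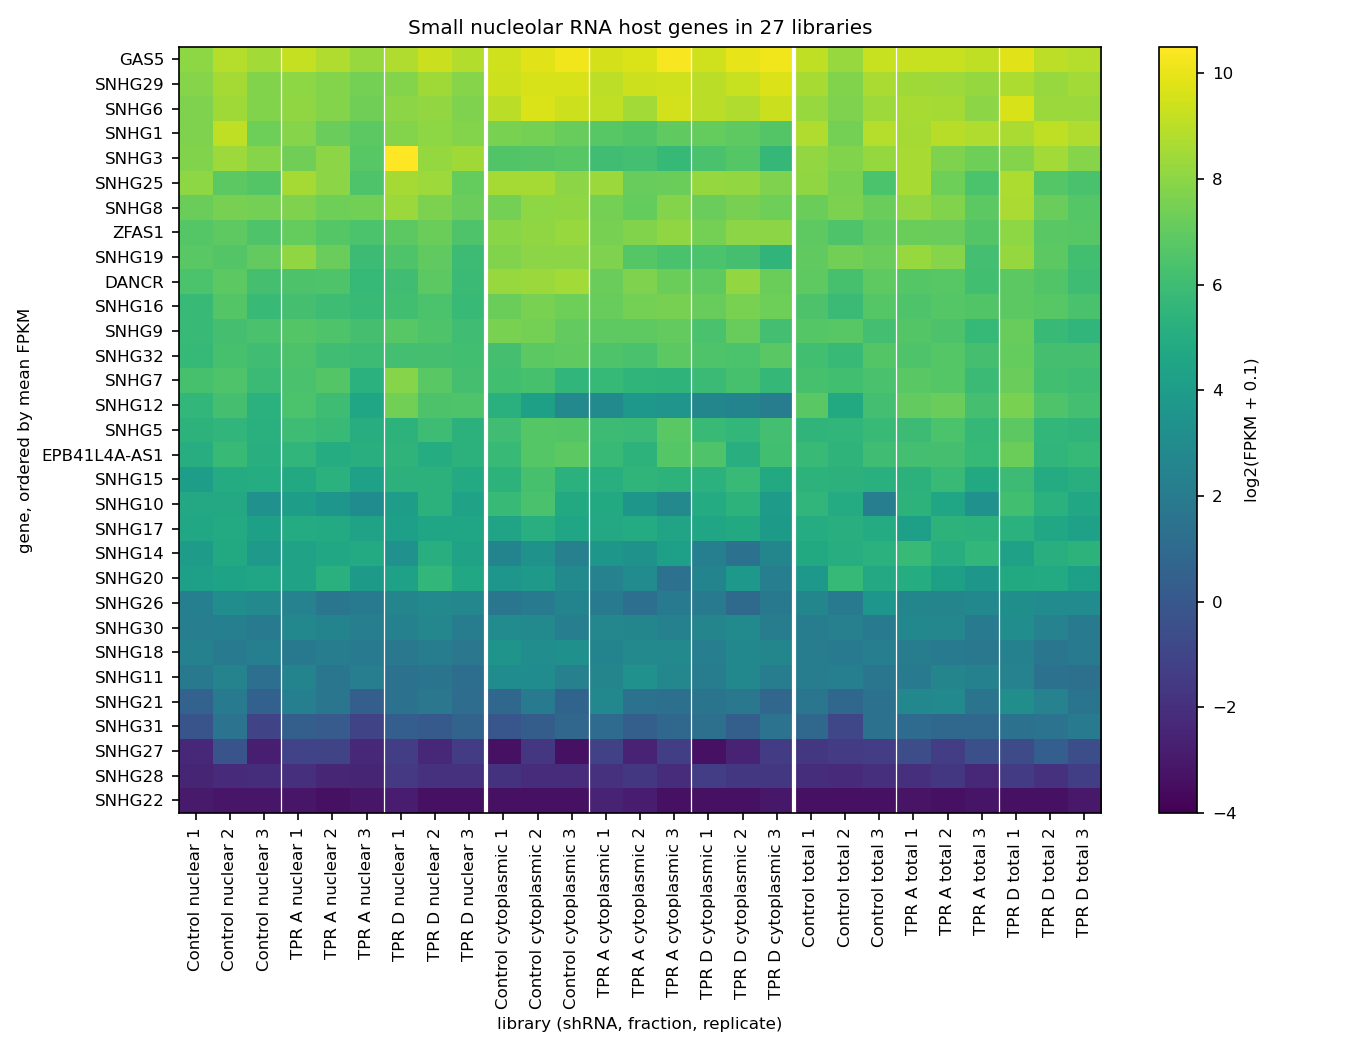
Heatmap of the 31 host genes (rows, ordered by mean FPKM) in the 27 libraries (columns, grouped by fraction and shRNA), with colour giving log2(FPKM + 0.1). GAS5 is at the top with a mean of 657 FPKM and SNHG22 at the bottom with 0.0109 FPKM; SNHG3 in the first TPR D nuclear library, at 1525 FPKM, is the brightest cell of its row.

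The 6 host genes with the highest mean in control total RNA were GAS5, SNHG1, SNHG29, SNHG6, SNHG3 and SNHG25. GAS5, a growth-arrest transcript known as a decoy for the glucocorticoid receptor (chr1:173827697-173838020, minus strand), had total RNA levels of 547, 301 and 624 in control, 633, 614 and 561 with TPR A and 935, 523 and 466 with TPR D. Its nuclear levels were 259.6, 478 and 361 in control, 598, 431 and 307 with TPR A and 433, 647 and 450.3 with TPR D, and its cytoplasmic levels were 689.5, 915 and 1185 in control, 764, 814 and 1328 with TPR A and 709.7, 1001 and 1161 with TPR D (FPKM, in the order of replicates 1, 2 and 3, as in all such lists). Every cytoplasmic library lay above the highest nuclear one. SNHG29 (chr17:16342081-16383563, plus strand) had 390.4, 212 and 400.2 FPKM in control, 346, 337 and 301 with TPR A and 413, 305 and 360.1 with TPR D in total RNA. In the nucleus it had 236, 373 and 212 in control, 267, 220.0 and 176 with TPR A and 222, 346 and 237 with TPR D, and in the cytoplasm 674, 802 and 779.8 in control, 538, 672 and 707 with TPR A and 513, 628 and 837 with TPR D. Here too the nuclear and cytoplasmic libraries did not overlap. How common such a lack of overlap is among all genes was not counted. SNHG6 had 304, 211 and 334 FPKM in control, 391, 372 and 255 with TPR A and 778, 318 and 321 with TPR D in total RNA. Nuclear levels of SNHG6 were 208, 347 and 219.7 in control, 271, 226 and 162 with TPR A and 251, 283 and 206 with TPR D, and cytoplasmic levels were 519, 809.9 and 662 in control, 543, 353 and 740.2 with TPR A and 509, 438 and 643 with TPR D. Its first TPR D total library stood above the other total libraries.

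SNHG1, host of 8 box C/D snoRNAs (chr11:62619450-62623425, minus strand), was ordered differently. In total RNA it had 445, 174 and 482 FPKM in control, 381, 488 and 444 with TPR A and 402, 554 and 446 with TPR D. Nuclear libraries had 203, 563 and 158 in control, 234, 144 and 113 with TPR A and 221, 266 and 224 with TPR D, and cytoplasmic libraries had 190.1, 178 and 138 in control, 108, 95.3 and 127 with TPR A and 137, 118 and 97.3 with TPR D. The nuclear value of control replicate 2 was above the total values of all other cultures, and its total value lay among the nuclear ones. SNHG3, which encloses the abundant H/ACA snoRNAs SNORA73A and SNORA73B (chr1:28832492-28837404, plus strand), had 282, 212 and 300.4 FPKM in control, 382, 204 and 158 with TPR A and 223, 360.2 and 233 with TPR D in total RNA. In the nucleus SNHG3 had 219, 329 and 235 in control, 161, 256 and 107 with TPR A and 1525, 299.8 and 339.8 with TPR D, and in the cytoplasm 96.4, 98.1 and 107 in control, 67.1, 70.6 and 51.6 with TPR A and 79.8, 103 and 50.3 with TPR D. It overlaps with RCC1 on the same strand, so that reads of either can be counted for the other. SNHG25 had 271, 194 and 83.2 FPKM in control, 391, 160.5 and 83.1 with TPR A and 428, 100.4 and 80.1 with TPR D in total RNA. Its nuclear levels were 265, 115 and 98.5 in control, 377, 249 and 91.4 with TPR A and 370.1, 326 and 132 with TPR D, and its cytoplasmic levels 373, 369 and 250.3 in control, 318, 141 and 150.3 with TPR A and 290.5, 285 and 205 with TPR D. Its annotated transcripts are as short as 108 nt, a size at which the effective length, and with it the FPKM, is poorly set.

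Means over all libraries of the other host genes ran from 193 FPKM for SNHG8 down to 1.66 FPKM for SNHG31. SNHG8, ZFAS1, SNHG19, DANCR and SNHG16 were above 100 FPKM. SNHG9, SNHG32, SNHG7, SNHG12, SNHG5 and EPB41L4A-AS1 lay between 60.1 and 97.8 FPKM, and SNHG15, SNHG10, SNHG17, SNHG14 and SNHG20 between 19.7 and 38.5. SNHG26, SNHG30, SNHG18, SNHG11 and SNHG21 lay between 3.41 and 5.54 FPKM. Just above the limit of 1 FPKM was SNHG31 and just below it was SNHG27, with a mean of 0.304 and a highest library of 1.18 FPKM. SNHG28 had a mean of 0.165 FPKM and SNHG22 of 0.0109 FPKM. These 3 were in no test.

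In control cells the host genes leaned to the cytoplasm. The nuclear/cytoplasmic (N/C) ratio, on the log2 scale of scaled FPKM + 0.1, had a median of -0.92 over the 28 host genes, compared with -0.014 over 14611 genes and -0.31 over 1689 lncRNA genes, and 21 of 28 were below 0. By limma with Benjamini-Hochberg adjustment over all genes, 12 of 28 host genes were higher in the cytoplasm, where the share among all genes was 19.2%, and 3 of 28 were higher in the nucleus, where it was 20.2%. Without the culture of control replicate 2 these counts were 9 and 1, against 2073 and 2281 of all genes, and the median was -0.91. Without control replicate 1 they were 8 and 2, against 1790 and 1899 of all genes. Without control replicate 3 they were 9 and 1, against 2066 and 2339. With the culture as a replicate block, which pairs the nuclear and cytoplasmic library of the same dishes, 16 were higher in the cytoplasm and 4 in the nucleus, against 3425 and 3441 of all 14611 genes. FPKM are relative to each library, so an N/C ratio ranks genes against each other and does not count molecules.

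The 3 most cytoplasmic host genes were DANCR, SNHG29 and ZFAS1. DANCR, known for holding back differentiation of progenitor cells (chr4:53578492-53589790, plus strand), had nuclear levels of 82.9, 113 and 75.8 FPKM in control, 87.2, 89.9 and 52.9 with TPR A and 65.5, 117 and 59.1 with TPR D. Its cytoplasmic levels were 312, 320.0 and 353 in control, 146, 204 and 150.5 with TPR A and 118, 284 and 152 with TPR D, and its total levels 119, 77.6 and 122 in control, 102, 106 and 67.8 with TPR A and 117, 95.4 and 63.3 with TPR D. The lowest cytoplasmic library, TPR D replicate 1, was just above the highest nuclear one, TPR D replicate 2. In the cytoplasm all control libraries lay above all TPR A and TPR D libraries. The share of all genes with either order was not counted. The N/C ratio of DANCR was -1.84 ± 0.33 (SE, adjusted p = 0.00018) in control cells. This SE, like the others given for N/C ratios and their changes, is from the fit without the culture as a block. ZFAS1, an antisense neighbour of ZNFX1 best known from mammary epithelium, had 101, 120.1 and 90.6 FPKM in control, 133, 103 and 82.4 with TPR A and 114, 151 and 90.1 with TPR D in the nucleus. In the cytoplasm it had 247, 275 and 309 in control, 184, 217 and 268 with TPR A and 180.2, 256 and 257 with TPR D, and in total RNA 121, 91.8 and 124 in control, 149, 146 and 98.8 with TPR A and 263, 111 and 105 with TPR D. The N/C ratio of ZFAS1 was -1.38 ± 0.29 (SE, adjusted p = 0.000913), and that of SNHG29 was -1.46 ± 0.27 (SE, adjusted p = 0.000259).

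Also higher in the cytoplasm of control cells were GAS5 at -1.32, SNHG6 at -1.34, SNHG16 at -1.28, SNHG9 at -1.19 and EPB41L4A-AS1 at -1.10 on the log2 scale. SNHG18, SNHG5, SNHG15 and SNHG11 followed, between -1.05 and -0.89. Of the 12, the calls of SNHG16, SNHG29, ZFAS1, DANCR, GAS5, SNHG6 and SNHG18 were made under each of the 16 alternatives tried.

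The 3 host genes higher in the nucleus were SNHG12, SNHG14 and SNHG3. SNHG12, host of 3 H/ACA snoRNAs and 1 box C/D snoRNA (chr1:28905050-28909644, minus strand), had nuclear levels of 49.1, 73.6 and 38.9 FPKM in control, 85.4, 64.996 and 23.8 with TPR A and 167, 88.8 and 90.4 with TPR D. Its cytoplasmic levels were 37.4, 18.9 and 6.86 in control, 7.26, 13.4 and 11.9 with TPR A and 6.18, 5.81 and 4.15 with TPR D, and its total levels 109.9, 27.4 and 71.7 in control, 127, 144 and 74.3 with TPR A and 190.3, 90.9 and 71.5 with TPR D. In the cytoplasm the 3 control libraries spread widely, and all TPR D libraries lay below them. How many of all genes had this order was not counted. The N/C ratio of SNHG12 in control cells was 1.65 ± 0.56 (SE, adjusted p = 0.0237). It lost the call without control replicate 2 or 3. SNHG14 (chr15:25223730-25665483, plus strand), an unusually long gene that overlaps SNRPN on its own strand and UBE3A on the other, had 15.6, 27.6 and 14.5 FPKM in control, 20.2, 24.6 and 29.6 with TPR A and 9.87, 35.9 and 20.5 with TPR D in the nucleus. Its cytoplasm held 5.76, 10.9 and 4.80 in control, 12.7, 10.9 and 17.7 with TPR A and 4.64, 2.65 and 6.11 with TPR D, and its total RNA 27.6, 32.2 and 38.6 in control, 56.8, 33.3 and 49.1 with TPR A and 19.3, 35.2 and 41.8 with TPR D. Each control nuclear library of SNHG14 lay above each control cytoplasmic library, an order whose share among all genes was not counted. The N/C ratio of SNHG14 was 1.48 ± 0.41 (SE, adjusted p = 0.00652). That of SNHG3 was 1.39 ± 0.45 (SE, adjusted p = 0.0175), and the call was lost without any 1 of the control replicates.

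**Figure D2:**
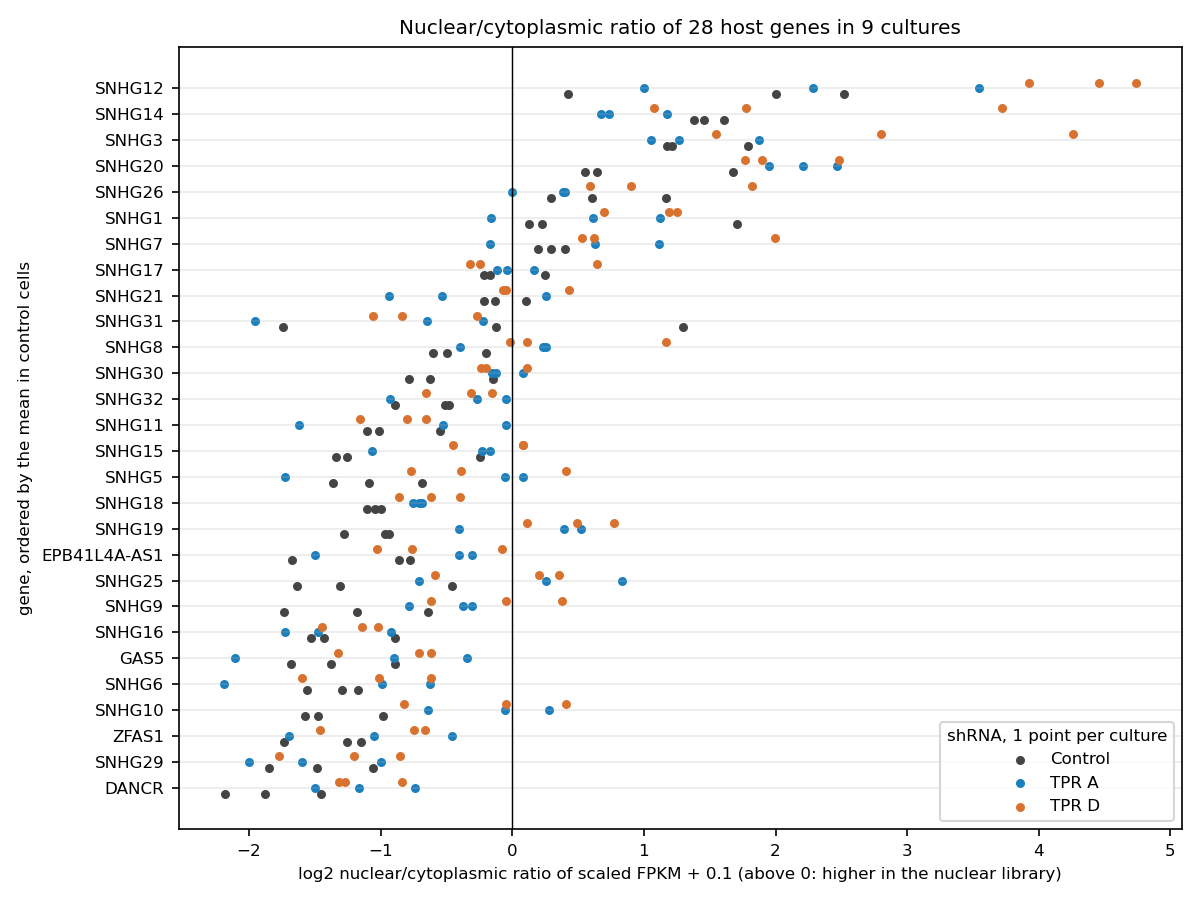
Log2 N/C ratio of the 28 host genes above 1 FPKM (rows, ordered by the control mean), with 1 point for each culture: dark grey for control, blue for TPR A and orange for TPR D. Values above 0 are higher in the nuclear library. DANCR is lowest at -1.84 in control cells and SNHG12 highest at 1.65. The orange points of SNHG12 lie right of all its other points, but SNHG12 also had the largest N/C change, so this order adds no support.

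Host genes differed among themselves in the small RNAs they enclose, and the N/C ratios overlapped between the kinds. The 13 genes with box C/D snoRNAs alone had a median control N/C ratio of -1.05, with a range of -1.46 to 1.48. The 10 with box H/ACA snoRNAs alone had -0.66, from -1.84 to 1.39, and the 3 with a scaRNA had -0.081. Across the 28 genes, which share the same libraries, the control N/C ratio had a Spearman rho of -0.41 with the mean level and 0.37 with the median transcript length. These are descriptions over genes that are not independent replicates.

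Under the TPR shRNAs fewer host genes were called cytoplasmic. With TPR A 7 of 28 were higher in the cytoplasm (all genes 13.2%) and 3 higher in the nucleus (all genes 15.2%), with a median of -0.41. With TPR D 7 were higher in the cytoplasm (all genes 14.6%) and 7 higher in the nucleus (all genes 17.1%), with a median of -0.10. DANCR, SNHG16, SNHG18, SNHG29, SNHG6 and ZFAS1 were called cytoplasmic with all 3 shRNAs, and SNHG12 and SNHG3 nuclear with all 3. Of these, only SNHG16 and SNHG29 kept the call under all 16 alternatives with each shRNA. With TPR A the call of SNHG3 was lost without any 1 of the TPR A cultures, and that of SNHG12 without TPR A replicate 1. Those of DANCR, ZFAS1 and SNHG18 with TPR A were lost without TPR A replicate 2 or 3. SNHG20 was called nuclear with TPR A at 2.21 and with TPR D at 2.05, and had 0.96 ± 0.50 (SE, adjusted p = 0.131) in control cells. With TPR D the nuclear calls also took in SNHG14, SNHG26, SNHG1 and SNHG7. The call of SNHG1 was lost with the culture as a block, as it was without any 1 of the TPR D cultures, and that of SNHG7 was lost without any 1 of the TPR D cultures. The largest N/C ratio was that of SNHG12 with TPR D, 4.37 ± 0.56 (SE, adjusted p = 1.31e-05). Counts of calls do not test the difference between shRNAs. Single cultures mattered: without TPR A replicate 3 the TPR A count was 4 in both directions together, without TPR A replicate 2 it was 5, and without TPR D replicate 3 or 2 the TPR D count was 6 or 9.

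The change of the N/C ratio on TPR depletion was therefore tested directly. No host gene passed the threshold with TPR A, with TPR D or with both, and neither did any other gene, so that the share called was 0% in each. At an unadjusted p under 0.05 there were 0 host genes under TPR A (all genes 1.47%), 3 under TPR D (all genes 0.821%), namely SNHG12, SNHG3 and SNHG9, and 3 under both (all genes 1.72%), namely SNHG12, SNHG19 and SNHG9, all toward the nucleus. The host genes had a median change of 0.27 under TPR A, 0.46 under TPR D and 0.40 under both, with 21, 27 and 24 of 28 above 0. Over all genes the medians were 0.0021, -0.0047 and -0.003. Both changes share the control libraries. Without control replicate 2 the host gene medians were 0.34, 0.66 and 0.49. That of TPR A was 0.11 without control replicate 3, 0.05 without TPR A replicate 1 and 0.55 without TPR A replicate 3. With the culture as a block, again no host gene passed, and 7 host genes had an unadjusted p under 0.05 for both shRNAs, as did 455 of 14611 genes.

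Within single cultures the median N/C ratio of the host genes was -0.73, -0.75 and -0.91 in control, -0.049, -0.091 and -0.73 with TPR A and -0.27, -0.12 and -0.034 with TPR D. The TPR D cultures did not overlap with the control cultures, and TPR A replicate 3 lay among the latter. Taken by replicate number, whose libraries 1 carry labels written differently from 2 and 3, the median change came to 0.50, 0.29 and -0.13 for TPR A and 0.56, 0.43 and 0.59 for TPR D. The third TPR A culture thus lay on the other side of 0.

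**Figure D3:**
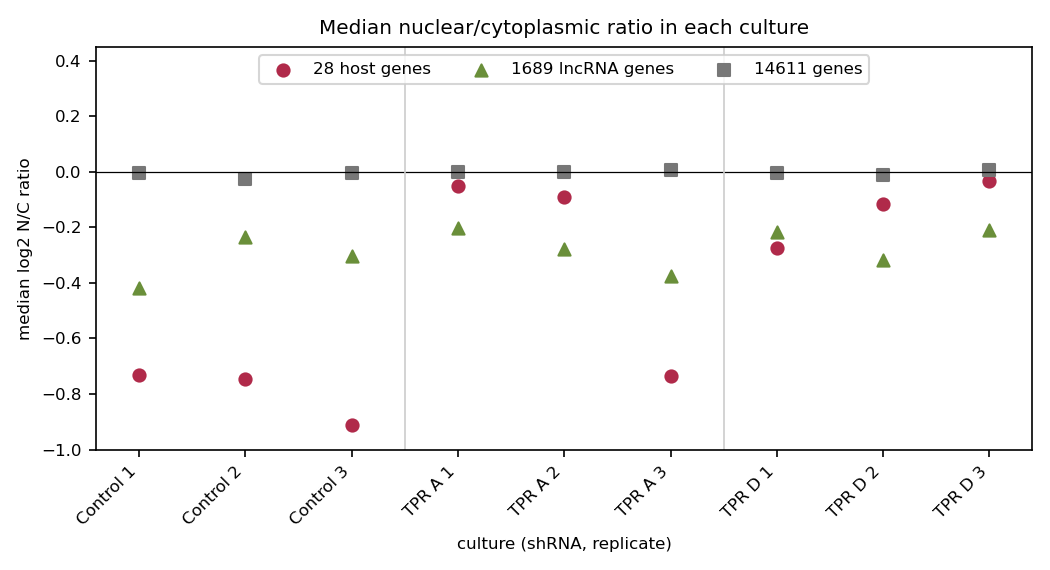
Median log2 N/C ratio in each of the 9 cultures for the 28 host genes (circles), 1689 lncRNA genes (triangles) and all 14611 genes tested (squares). The circles lie between -0.91 and -0.73 in control and between -0.27 and -0.034 with TPR D, while TPR A replicate 3 is at -0.73.

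The 3 host genes with the largest positive change were SNHG12, SNHG19 and SNHG10. For SNHG12 the N/C ratios by culture were 0.42, 2.002 and 2.52 in control, 3.55, 2.29 and 1.004 with TPR A and 4.74, 3.92 and 4.46 with TPR D, and its change with both shRNAs was 1.68 ± 0.69 (SE, adjusted p = 0.999). It was 1.07 without control replicate 1 and 2.11 without control replicate 3. TPR D cultures lay above all others, whereas TPR A cultures overlapped with control. SNHG19 had nuclear levels of 109, 99.5 and 129.5 FPKM in control, 271, 143 and 61.6 with TPR A and 91.2, 125 and 62.1 with TPR D. Its cytoplasmic levels were 218, 249 and 254 in control, 207, 101 and 81.9 with TPR A and 84.96, 73.6 and 45.5 with TPR D, and its total levels 124, 169 and 145 in control, 304, 237 and 70.8 with TPR A and 294, 116 and 68.3 with TPR D. The N/C ratios of SNHG19 were -0.97, -1.27 and -0.94 in control, 0.40, 0.53 and -0.41 with TPR A and 0.11, 0.77 and 0.49 with TPR D, without overlap between control and depleted cultures, and its change was 1.37 ± 0.66 (SE, adjusted p = 0.999). SNHG10, which carries the scaRNA SCARNA13 (chr14:95988280-96001226, minus strand), had 26.7, 26.6 and 9.90 FPKM in control, 17.5, 12.03 and 8.35 with TPR A and 17.3, 39.5 and 20.4 with TPR D in the nucleus. In the cytoplasm it had 53.97, 82.3 and 28.3 in control, 27.5, 12.7 and 6.88 with TPR A and 30.7, 41.1 and 15.8 with TPR D, and in total RNA 46.8, 29.9 and 4.58 in control, 40.7, 23.6 and 10.1 with TPR A and 68.5, 38.2 and 24.3 with TPR D. The N/C ratios of SNHG10 were -0.98, -1.58 and -1.48 in control, -0.64, -0.058 and 0.28 with TPR A and -0.82, -0.049 and 0.41 with TPR D, which did not overlap either, and its change was 1.20 ± 0.86 (SE, adjusted p = 0.999). Libraries of SNHG10 spread widely within groups, from 4.58 to 46.8 FPKM in control total RNA. SNHG12, SNHG19 and SNHG10 were picked by the size of this change. The lack of overlap, for SNHG12 with TPR D only, therefore adds no support. The N/C ratios of SNHG18 and SNHG20 did not overlap between control and depleted cultures either. The share of all genes without such overlap was not counted.

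At the other end were SNHG31, SNHG21 and SNHG26. SNHG31, close to the limit of 1 FPKM, had 0.736, 2.79 and 0.394 FPKM in control, 1.22, 1.01 and 0.383 with TPR A and 1.14, 0.974 and 1.43 with TPR D in the nucleus. It had 0.831, 1.11 and 1.59 in control, 1.98, 1.21 and 1.79 with TPR A and 2.49, 1.20 and 2.72 with TPR D in the cytoplasm and 1.78, 0.429 and 2.62 in control, 1.9999, 1.76 and 1.78 with TPR A and 2.70, 2.75 and 4.06 with TPR D in total RNA. Its change was -0.64 ± 0.70 (SE, adjusted p = 0.999), and without control replicate 2 it was on the other side of 0. SNHG21, host of SCARNA15, had 1.40, 3.93 and 1.31 FPKM in control, 4.60, 3.15 and 1.23 with TPR A and 2.70, 3.21 and 2.17 with TPR D in the nucleus. Cytoplasmic levels were 1.68, 3.76 and 1.48 in control, 6.74, 2.65 and 2.46 with TPR A and 2.85, 3.34 and 1.64 with TPR D, and total levels 3.19, 1.70 and 2.56 in control, 6.79, 7.67 and 2.88 with TPR A and 8.997, 5.24 and 2.86 with TPR D. The change of SNHG21 was -0.069 ± 0.66 (SE, adjusted p = 0.999). SNHG26 had 4.71, 8.54 and 6.996 FPKM in control, 5.28, 3.11 and 3.64 with TPR A and 5.87, 6.88 and 6.50 with TPR D in the nucleus. The cytoplasm held 3.13, 3.86 and 5.80 in control, 4.002, 2.39 and 3.66 with TPR A and 3.88, 1.89 and 3.54 with TPR D, and total RNA 6.32, 3.62 and 11.97 in control, 6.31, 5.86 and 6.66 with TPR A and 9.24, 8.01 and 8.02 with TPR D. Its change was -0.0071 ± 0.44 (SE, adjusted p = 0.999), and the control and depleted cultures of all 3 genes overlapped.

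Between these ends SNHG25, SNHG20, SNHG9 and SNHG3 had changes of 1.19, 1.17, 0.89 and 0.74 for both shRNAs, none past the threshold. Host genes with few exons and a short gene tended to lie toward the positive end. By exons SNHG12, with a median of 5, and SNHG21, with a median of 3 and a change below 0, were exceptions. By gene length SNHG1 (3976 bp) and SNHG11 (4598 bp) were exceptions, with changes of 0.099 and 0.089. So were SNHG10 (12947 bp) and SNHG20 (13187 bp), with 1.20 and 1.17. The shortest genes, SNHG25, SNHG19 and SNHG9, have uncertain FPKM. Across the 28 genes the change for both shRNAs had a Spearman rho of -0.58 with the median number of exons, -0.52 with the length of the gene and -0.32 with the median transcript length. All 28 points come from the same 18 fractionated libraries.

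**Figure D4:**
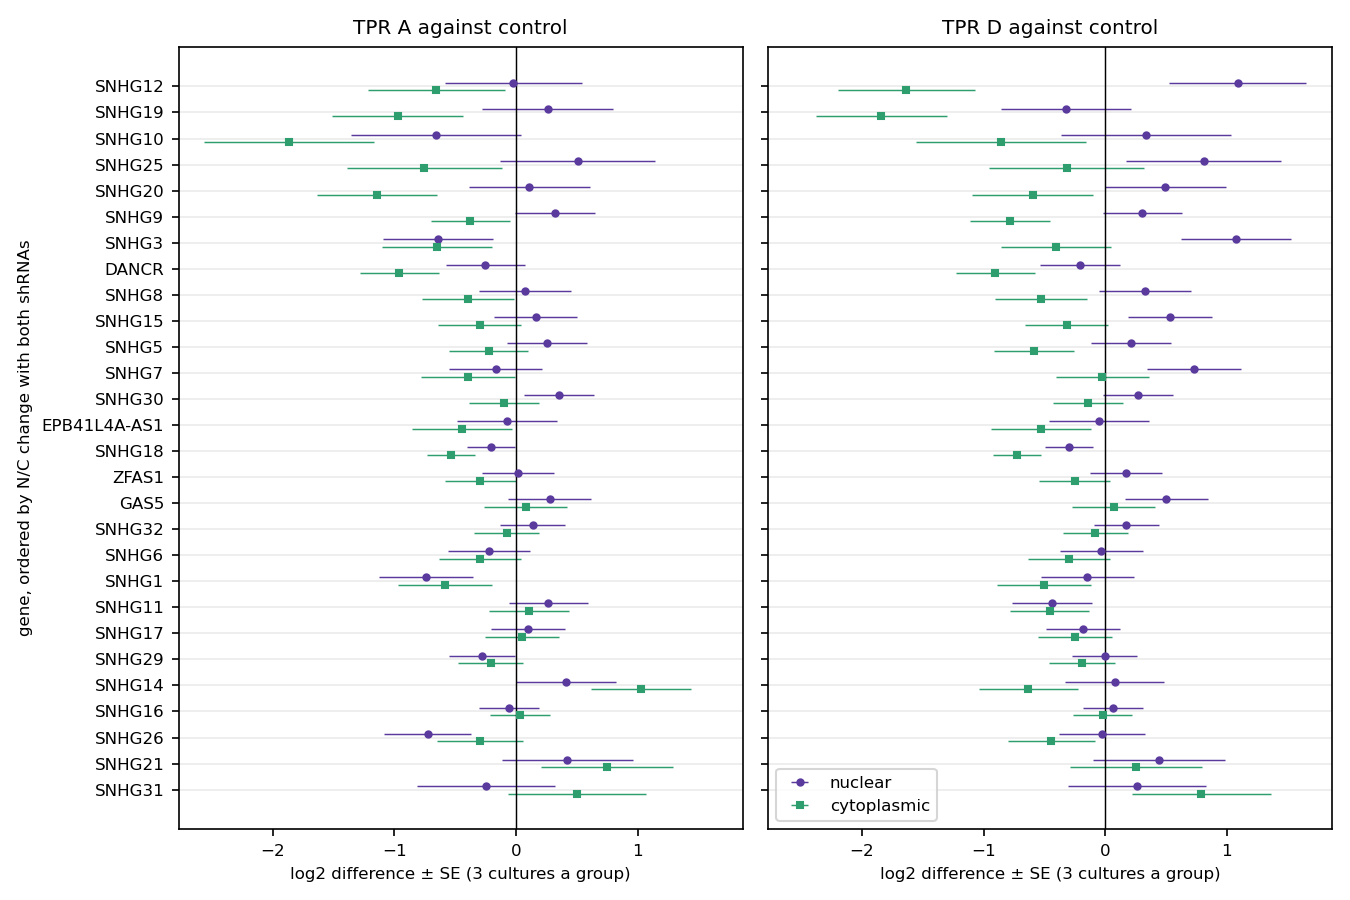
Log2 difference between TPR-depleted and control libraries in the nuclear (circles) and cytoplasmic (squares) fraction for the 28 host genes, ± SE from the limma fit with 3 cultures a group, for TPR A (left) and TPR D (right). Genes are ordered by the N/C change with both shRNAs, from SNHG12 at 1.68 to SNHG31 at -0.64; for most genes the square lies left of the circle.

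The fractions were also compared one by one. In the cytoplasm 0 of 28 host genes passed with TPR A (all genes 0.623%) and 0 with TPR D (all genes 0.575%). An unadjusted p under 0.05 was reached by 5 with TPR A (all genes 11.6%) and 5 with TPR D (all genes 9.42%), by limma. The medians were -0.30 and -0.42, against -0.024 and -0.019 over all genes. DANCR had -0.96 ± 0.33 (SE, adjusted p = 0.201) with TPR A and -0.91 ± 0.33 (SE, adjusted p = 0.285) with TPR D. SNHG18, which carries 1 box C/D snoRNA (chr5:9546282-9550837, plus strand), had -0.53 ± 0.20 (SE, adjusted p = 0.249) and -0.72 ± 0.20 (SE, adjusted p = 0.108). SNHG19 had -1.84 ± 0.54 (SE, adjusted p = 0.15) with TPR D, and SNHG12 -1.63 ± 0.56 (SE, adjusted p = 0.259). The others were SNHG10 at -1.86 and SNHG20 at -1.14 with TPR A and SNHG9 at -0.78 with TPR D. Against their direction, SNHG14 had 1.03 ± 0.41 (SE, adjusted p = 0.293) with TPR A.

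In the nucleus 0 host genes passed with TPR A (all genes 0.903%) and 0 with TPR D (all genes 0.479%). At an unadjusted p under 0.05 there were 0 with TPR A (all genes 12.2%) and 1 with TPR D (all genes 9.13%), by limma. The latter was SNHG3 at 1.07 ± 0.45 (SE, adjusted p = 0.449), where 1 library decided the value: the first TPR D nuclear library held 1525 FPKM and the others 299.8 and 339.8. That library was also the highest nuclear library for SNHG7 at 229.9 FPKM, SNHG8 at 319.7 and SNHG12 at 167. The medians over the host genes were 0.047 and 0.19, and 0.21 and 0.36 without control replicate 2, when 0 and 4 had an unadjusted p under 0.05, as did 1427 and 1246 of 14611 genes.

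In total RNA 0 host genes passed with TPR A (all genes 0.821%) and 0 with TPR D (all genes 0.753%). At an unadjusted p under 0.05 there were 1 (all genes 12.6%) and 3 (all genes 14.6%) by limma, namely SNHG21 with both shRNAs and SNHG31 and SNHG6 with TPR D. The medians were 0.31 and 0.31, and 0.10 and 0.11 without control replicate 2, when neither comparison had a host gene at an unadjusted p under 0.05. By replicate number the third TPR A and TPR D cultures had medians of -0.33 and -0.27 against the third control, while those numbered 1 and 2 were above 0. For the 6 most abundant genes the TPR A and TPR D differences in total RNA were 0.42 and 0.46 for GAS5, 0.44 and 0.55 for SNHG1, and 0.088 and 0.23 for SNHG29. They were 0.33 and 0.71 for SNHG6, -0.12 and 0.098 for SNHG3 and 0.15 and -0.037 for SNHG25. Without control replicate 2 they were 0.072 and 0.11 for GAS5, -0.061 and 0.043 for SNHG1 and -0.24 and -0.10 for SNHG29. Likewise they were 0.094 and 0.48 for SNHG6, -0.31 and -0.087 for SNHG3 and 0.24 and 0.052 for SNHG25. Without TPR D replicate 1 the TPR D differences of GAS5 and SNHG6 were 0.15 and 0.28. Both shRNAs were compared with the same control libraries.

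The level of SNHG1 in total RNA exceeded its level in both fractions, which was noticed after its values were seen and has no test. Leaving out the culture of control replicate 2, its 8 total libraries ranged from 393 to 573 scaled FPKM, and the highest of its 16 nuclear and cytoplasmic libraries had 261. The total mean was 2.44 times the nuclear and 3.85 times the cytoplasmic mean. Of the 28 host genes only 1, SNHG1, had no overlap in these 24 libraries, and 2.05% of all genes had none. The host genes are thus not set apart from all genes by this trait. MALAT1, a nuclear speckle RNA, was among those genes, with total libraries from 73.8 scaled FPKM upward and fractions up to 39.5. With all 27 libraries as labelled no gene was free of overlap (0%).

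A total mean above both fraction means was found in 12 of 28 host genes, against 33% of all genes. SNHG14 had ratios of 1.86 to the nuclear and 4.91 to the cytoplasmic mean, and SNHG12 of 1.52 and 10.2. GAS5, by contrast, lay between its fractions, at 1.47 times the nuclear and 0.683 times the cytoplasmic mean. Since each library is scaled to its own total, a total value need not lie between the 2 fractions.

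**Figure D5:**
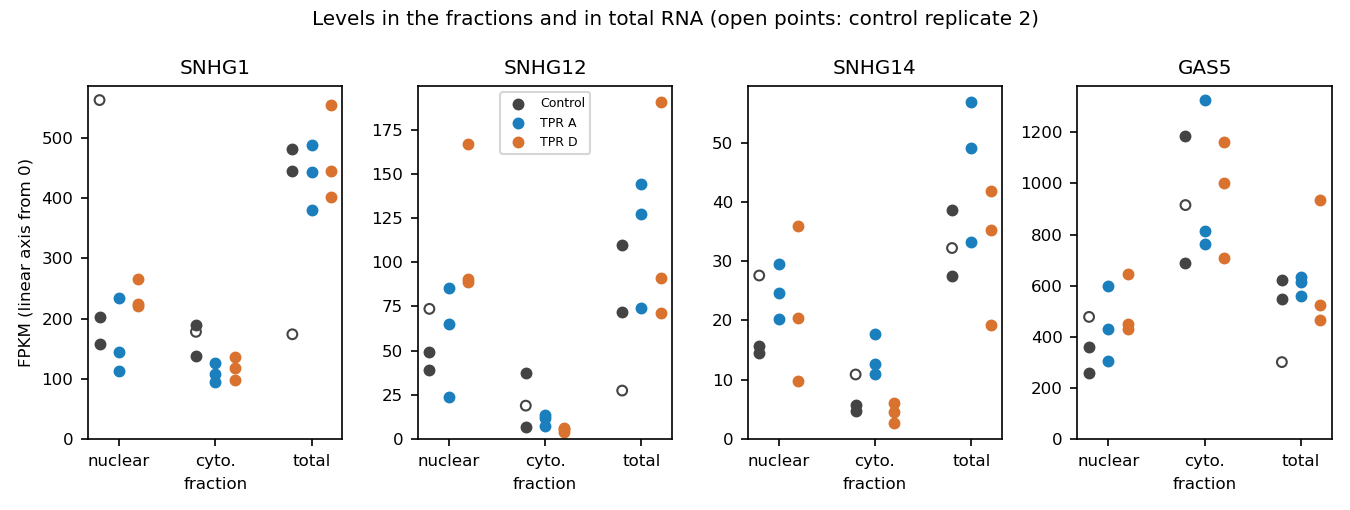
FPKM of SNHG1, SNHG12, SNHG14 and GAS5 in each nuclear, cytoplasmic and total library, coloured by shRNA (dark grey control, blue TPR A, orange TPR D), on linear axes from 0, with open points for control replicate 2. For SNHG1 the filled total points start at 381 FPKM, above all filled points of both fractions, and the open nuclear and total points, at 563 and 174, are in reverse order.

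Host gene levels also differed between the replicate numbers. SNHG25, SNHG21 and SNHG30 were higher in the library numbered 1 than in that numbered 3 in each of the 9 groups, which held for 5.18% of all genes. The median difference was 1.46 for SNHG25, 0.77 for SNHG21 and 0.53 for SNHG30 on the log2 scale. None of the 28 was lower in all 9, as 5.91% of all genes were. SNHG10, SNHG7 and SNHG12 were higher in the library numbered 1 in 8 of 9 groups. The part of the replicate number in the comparisons above was not tested beyond the blocked fits.

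Other genes of snoRNA biology were followed as 4 lists. The snoRNP core proteins, fibrillarin, NOP56, NOP58 and SNU13 for box C/D and dyskerin, NOP10, NHP2 and GAR1 for box H/ACA, had a median control N/C ratio of -0.23, with 2 of 8 higher in the nucleus and 3 in the cytoplasm. The mRNA of NOP58 was at 2.05, and those of SNU13 and NHP2, which encode small proteins, at -1.29 and -1.28. Of 10 assembly factors 9 were tested, and 5 were higher in the nucleus and 0 in the cytoplasm. Of 29 protein-coding genes that carry snoRNAs in their introns, 11 were higher in the nucleus and 5 in the cytoplasm, with a median of 0.58. Nucleolin (NCL) was at 1.77 and TPT1, which encodes the translationally controlled tumour protein, at -1.60. Of 10 nonsense-mediated decay factors 5 were higher in the nucleus, among them UPF1 and UPF2, and 1 in the cytoplasm. Among all genes 20.2% were higher in the nucleus of control cells and 19.2% in the cytoplasm. NOP56, NOP58 and dyskerin are in both the core protein and the host list, so the calls of NOP58 and dyskerin count in both.

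For the change of the N/C ratio with both shRNAs no gene of these lists passed. The medians were 0.38 for the core proteins, 0.016 for the assembly factors, 0.014 for the protein-coding hosts and 0.0033 for the decay factors, beside 0.40 for the 28 non-coding hosts. In total RNA the medians with TPR A and TPR D were -0.42 and -0.36 for the core proteins, -0.35 and -0.54 for the assembly factors and -0.36 and -0.32 for the protein-coding hosts. The decay factors had -0.13 and -0.10. These medians include the total library of control replicate 2 and are not given without it. Of all 4 lists 1 gene passed in total RNA with TPR A: RCC1, the exchange factor for Ran and the neighbour of SNHG3, fell by 1.21 on the log2 scale (SE 0.22, adjusted p = 0.0111). SNHG3 itself had -0.12 ± 0.45 (SE, adjusted p = 0.94) in the same comparison. In the nucleus with TPR A 1 decay factor passed, UPF3A, which fell by 1.16 (SE 0.27, adjusted p = 0.0399). Among all genes 0.821% passed in total RNA and 0.903% in the nucleus with TPR A. Both calls include control replicate 2.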

How the data were processed

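Poly(A)+ RNA was measured in 27 libraries of U2OS cells (3 shRNAs, 3 fractions, 3 replicate cultures). The authors deposited FPKM per gene, made with Salmon and tximport against an hg19 annotation from Gencode. Per the submitters' processing notes DESeq2 was also used; versions are not given in the sources used here, nor whether counting used strand. Read counts were not analysed here, and depth was read from the steps between low FPKM values.

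Gene names, gene types and coordinates were taken from GENCODE release 44 on GRCh37 by gene ID, which matched 32776 of 34464 IDs. Hosted small RNAs were taken from RefSeq by containment within the span of the gene, without a condition on strand. The members and the gene lists were chosen with earlier results of these data known. Libraries were scaled by median-of-ratios factors (0.954 to 1.06). The 14611 genes with a mean above 1 FPKM outside the mitochondrial genome were tested on log2(FPKM + 0.1), which understates changes of low genes, with limma 3.58.1 (R 4.3.3), an intensity trend, 1 fit of 9 groups and Benjamini-Hochberg adjustment over all genes (threshold 0.05, two-sided). Comparisons were nucleus against cytoplasm for each shRNA, each TPR shRNA against control in each fraction, and the change of the N/C ratio. The fitting code was checked on simulated data. Other steps used Python 3.11.15.

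Genes named in full were the 6 with the highest mean in control total RNA, the 3 at each end of the control N/C ratio and of the N/C change with both shRNAs, any that passed a test of TPR against control or of the N/C change (none did), and TPR. Further genes were named as counts required, after their values were seen.

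The nuclear and cytoplasmic library of a culture came from the same dishes. Their deviations from the group means correlated at 0.223 to 0.469 over genes in all 9 cultures. The SE and p-values given by gene for N/C ratios leave this pairing out. Control and TPR A total libraries of the same number correlated at 0.137 to 0.324, while for the other comparisons with control the correlations went as low as -0.260. The sources do not say whether same-numbered cultures share a day, so p-values measure only the spread between these cultures, which may in part be technical. No pair of libraries was identical. Alternatives were unscaled FPKM, added constants of 1 and 0.01, no minimum, no trend, replicate blocks and leaving out each culture.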

Additional observations from a re-analysis of the deposited data

How the results depend on the processing

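Of the 3 N/C ratio counts of host genes called, 44 of 48 values under the alternatives stayed within 1.5 times the count given. The other 9 counts were 0, which leaves them little room to move. Leaving out 1 culture at a time moved the N/C count from 15 to between 10 and 15 in control, from 10 to between 4 and 10 with TPR A and from 14 to between 6 and 15 with TPR D. With the replicate number as a block, 1 host gene was called in the cytoplasm with TPR A (SNHG10, lower) and 1 with TPR D (SNHG19, lower), in place of 0. Deviations of same-numbered control and TPR cytoplasmic libraries correlated at 0.063 to 0.292 for TPR A and 0.026 to 0.276 for TPR D. These were positive but not all above 0.1, the limit taken for pairing. TPR A and TPR D cytoplasmic libraries correlated at 0.398 to 0.597. The block called 0 in total RNA with TPR A, where all correlations with control were above that limit. Of 372 values for single named genes 345 kept direction and call, 6 lost the call (SNHG3 and SNHG12 in the control N/C ratio, with SNHG12 at an adjusted p of 0.0516 by limma with no minimum) and 21 changed sign, none of them called. With 1 culture left out the N/C change with both shRNAs ran from -1.42 to 0.11 for SNHG31, from -0.23 to 0.061 for SNHG21 and from -0.21 to 0.23 for SNHG26, which was at 0.014 with FPKM as deposited. The total RNA difference with TPR A ran from -0.061 to 0.73 for SNHG1, from -0.24 to 0.27 for SNHG29, from -0.48 to 0.15 for SNHG3 and from -0.44 to 0.68 for SNHG25, and that with TPR D from -0.10 to 0.41 for SNHG29, from -0.11 to 0.22 for SNHG3 and from -0.79 to 0.42 for SNHG25. Those of GAS5 and SNHG6, which kept their sign, ran from 0.072 to 0.66 and from 0.094 to 0.52 with TPR A and from 0.11 to 0.69 and from 0.28 to 0.93 with TPR D, and that of SNHG1 with TPR D from 0.043 to 0.84. The N/C change of SNHG12 with both shRNAs ran from 1.07 to 2.11. The cause of these changes was not tested. Depth limits SNHG31 and SNHG21 most, and short transcripts such as SNHG25, SNHG19 and SNHG9 have uncertain FPKM.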
